A study of Homo sapiens with 4 samples.

Results

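The 37 genes described here are the interferon receptors, the transcription factors that carry the interferon signal, 2 sensors of viral RNA and a panel of interferon-stimulated genes. They were taken by symbol from a gene table of 58740 entries, and each of the 37 was in it. They comprised 4 receptor subunits, 4 factors of the STAT and IRF families, 2 sensors and 27 effectors. A level is an FPKM value, the fragments of a gene scaled to the length of its transcripts and to the mapped fragments of the library, as the authors deposited it. With a minimum of 1 FPKM in at least 1 library, 36 of the 37 were kept. IFI44L, an interferon-stimulated gene that neighbours IFI44, was the gene that fell short, with a highest level of 0.907 FPKM in HCEC-1CT.

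Bulk RNA sequencing was done on 4 human colon cell lines grown without attachment as spheroids, small balls of cells that form in low-attachment wells. HCEC-1CT comes from colon that was not cancerous and was immortalised with CDK4 and TERT, HCT116 and DLD-1 were derived from colorectal carcinomas, and SW620 from a lymph node metastasis of a colon carcinoma. Each line was labelled wild type, was kept for 7 days in medium with 10% serum and an antibiotic and antimycotic mix, and the labels name no interferon or other agent. The RNA of each line was pooled from spheroids of 2 plates of 24 wells, after compact spheroids had been picked under a microscope, and gave 1 library. The 4 libraries therefore had no replicates, no difference below has a test or a replicate error, and the cancer lines are not replicates of each other. The step between neighbouring low values put the depth at about 29500000 fragments for HCEC-1CT, 25300000 for HCT116, 23300000 for DLD-1 and 28700000 for SW620. A gene of 2 kb at 1 FPKM would then have drawn between 46.7 and 59.0 fragments.

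Interferons are secreted proteins that warn cells of virus infection. Type I interferons bind a receptor made of IFNAR1 and IFNAR2, and type II interferon binds one made of IFNGR1 and IFNGR2. Both receptors switch on JAK family kinases, which activate STAT proteins. A complex that holds STAT2 and IRF9 binds response elements in the promoters of interferon-stimulated genes, while STAT pairs bind gamma-activated sites. Epithelial cells of the gut respond to type I and type III interferons and hold a low level of many of these genes without infection.

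All 4 lines were labelled epithelial, and this label was set against markers. HCEC-1CT had 2 of 8 epithelial markers at or above 1 FPKM, with a summed level of 7.25 FPKM, and CDH1, EPCAM, KRT19 and KRT20 were listed at 0. In the cancer lines 6 to 8 of the 8 reached that level, with sums from 1535 to 6770 FPKM. Fibroblast markers went the other way, with 9 of 9 at or above 1 FPKM and a sum of 1079 FPKM in HCEC-1CT, against 1 or 2 of 9 and sums of 1.46 to 28 FPKM in the cancer lines. Each difference from HCEC-1CT below is thus also one between libraries that differ in these markers, and the part of cell identity in it was not tested. The leukocyte marker PTPRC was at 0.129 FPKM or less and CLEC4C was listed at 0 in every library. Of the 10 leukocyte markers, 1 to 3 reached 1 FPKM, with sums from 2.22 FPKM in DLD-1 to 42.4 FPKM in SW620. LYZ at 24.5 FPKM and CD68 at 16.6 FPKM made up most of that sum in SW620. In the same library the endothelial marker PECAM1 stood at 15.0 FPKM and CDH5 at 0.0832 FPKM. In a bulk library, fewer cells that express a gene and less RNA per cell cannot be told apart.

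The members had no common direction across the 4 lines. SW620 held the highest level of more effectors than any other line, whereas HCEC-1CT held that of 5 of the 8 receptor, STAT and IRF genes. Of the 36 members that passed the minimum, 15 had their highest level in SW620, which is 41.7%, where 21.5% of the 18637 genes past the minimum were highest in that library. HCEC-1CT held the highest level of 11 members, or 30.6%, against 18.9% of all genes. DLD-1 held that of 7, or 19.4%, against 32.9% of all genes. HCT116 held that of 3, or 8.33%, against 26.8% of all genes. Of the 26 effectors measured, SW620 held the highest level of 13, HCEC-1CT of 6, DLD-1 of 5 and HCT116 of 2.

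**Figure D1:**
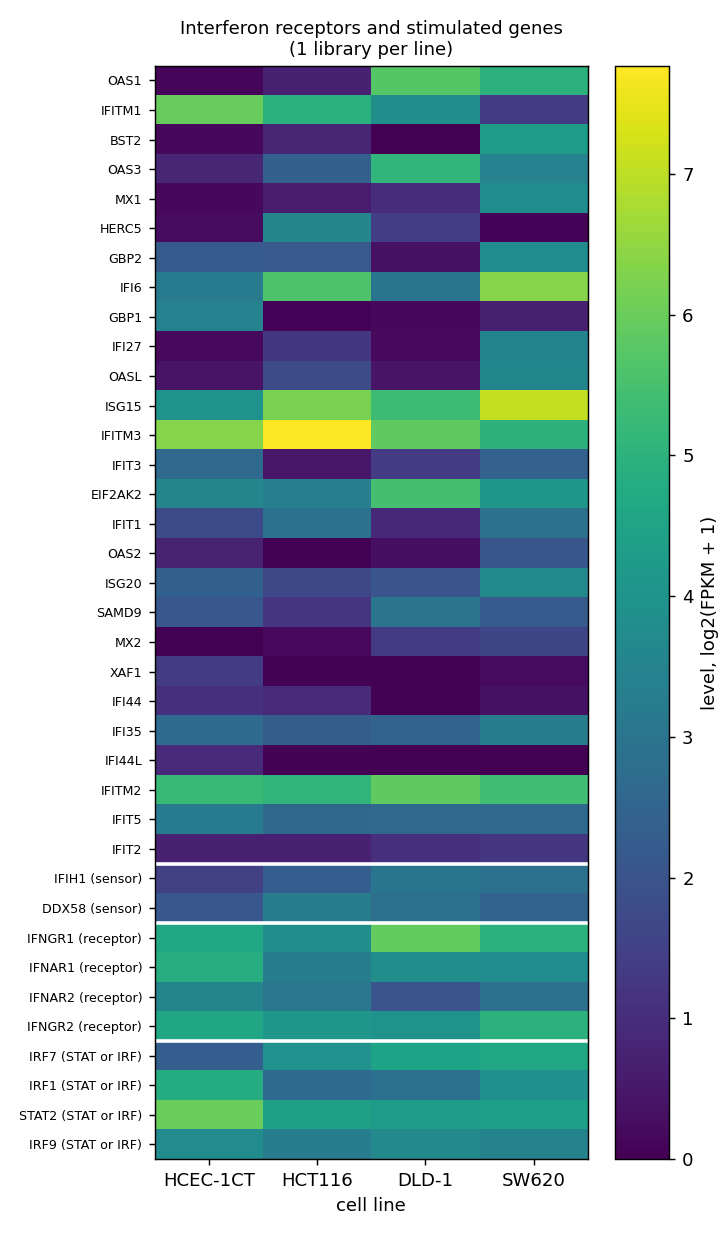
Levels of the 37 genes in the 4 libraries as log2(FPKM + 1), from 0 in dark purple to the highest in yellow, with effectors on top and then sensors, receptors and STAT or IRF genes, each sorted by their range. A reader should see the bright cells of OAS1 and OAS3 in DLD-1, of ISG15 and IFI6 in SW620 and of IFITM3 in HCT116, and the near-even rows of IRF9 and IFIT5.

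Differences from HCEC-1CT are given as log2 of the ratio after 1 FPKM was added to each level, which understates the difference of genes at low levels. On that scale, a difference of 2-fold or more was counted. In SW620, 15 of 36 members were higher (41.7%, against 24.8% of all genes) and 6 were lower (16.7%, against 14.1%). HCT116 had 10 higher (27.8%, against 26.9%) and 7 lower (19.4%, against 13.1%), shares that lie closer to those of all genes. In DLD-1, 9 were higher and 9 lower, 25% of members each way, against 25.9% and 12.9% of all genes. The 3 comparisons share the HCEC-1CT library, so they are not independent of each other.

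The median member differed from HCEC-1CT by -0.13 for HCT116, -0.20 for DLD-1 and 0.45 for SW620 on that log2 scale. Over all genes past the minimum the medians were 0.27, 0.33 and 0.21, so the typical member stood below the typical gene in HCT116 and DLD-1 and above it in SW620. The gap in SW620 depended on the minimum. It was 0.37 for members against 0.34 for all genes at 5 FPKM, and 0.37 against 0.00 with no minimum. At 5 FPKM the members of HCT116 and DLD-1 were each at -0.18, against 0.39 and 0.40 for all genes. A scaling by the median ratio between libraries brought the medians of all genes to 0.03, 0.05 and 0.03, and left 7 members higher and 10 lower in HCT116 (20.6% and 18% of all genes), and 7 higher and 12 lower in DLD-1 (19.3% and 16.7% of all genes). With levels rescaled to TPM, where every library has the same sum, HCT116 had 7 higher and 12 lower (22.6% and 22% of all genes). SW620 had 14 higher and 7 lower with the median ratio (20.6% and 17.8% of all genes), and 15 higher and 8 lower as TPM (24.2% and 20.2%).

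**Figure D2:**
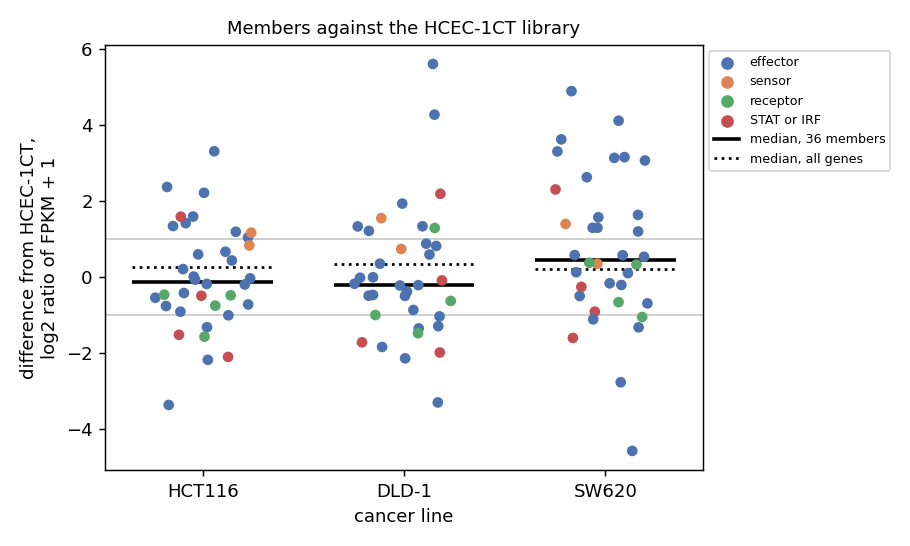
Difference of each of the 36 measured members from HCEC-1CT in HCT116, DLD-1 and SW620 (1 point per gene, coloured by role, spread sideways for legibility), as the log2 ratio of FPKM + 1. Solid lines mark the median member at -0.13, -0.20 and 0.45, dotted lines the median of all genes at 0.27, 0.33 and 0.21, and grey lines 2-fold; genes listed at 0 in a library are plotted at the value the added 1 FPKM gives.

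Several members stood apart in 1 library, by at least 2-fold on the same scale above each of the other 3, a measure chosen after the values had been seen. SW620 had 7 of these (19.4%, against 5.12% of all genes), namely ISG20, IFI27, MX1, OAS2, OASL, BST2 and GBP2. HCEC-1CT had 4 (11.1%, against 7.11%), namely IFITM1, STAT2, XAF1 and GBP1. HCT116 had IFITM3 and HERC5, or 5.56%, against 5.76% of all genes. DLD-1 had OAS3 and EIF2AK2, or 5.56%, against 7.74%.

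Promoters of the members were read for the sequences through which interferon acts. RefSeq windows on GRCh38.p14, from 250 bases before to 50 bases after a start site, were at hand for 29 of the 37 genes, and DDX58 was matched under its newer name RIGI. The 8 without a window were IFIT2, IFITM2, MX2, OAS2, OASL, IRF7, GBP2 and IFNAR2. IRF7 and IFNAR2 are therefore missing from the counts by role below. GAAANNGAAA, the core of the interferon-stimulated response element, was found on either strand in 19 of these 29 genes (65.5%), against 1195 of 27305 genes with a window (4.38%). TTCNNNGAA, the gamma-activated site, was found in 8 of the 29 (27.6%), against 2560 of all genes (9.38%). By role, 18 of 21 effectors and 1 of 2 sensors had the response element, and none of 3 receptors and none of 3 STAT or IRF genes had it. The gamma-activated motif was found in 6 of 21 effectors and in IRF1 and IRF9. Both motifs can share bases. The search fixed 2 bases between the copies of GAAA, so copies at another spacing were not counted. Such a match describes letters in a window and is not evidence of a bound factor.

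Below are 200 bases of the 4 promoters whose genes had the widest ranges between libraries, shown so that the letters can be read beside the levels of these genes. Each runs 5′ to 3′ on the strand of its gene, from 180 bases before to 20 bases after the RefSeq start, with motif matches in capitals. OAS1 lies at chr12:112906782-112906981 (plus strand), IFITM1 at chr11:313860-314059 (plus strand), BST2 at chr19:17405611-17405810 (minus strand) and OAS3 at chr12:112938294-112938493 (plus strand).
OAS1: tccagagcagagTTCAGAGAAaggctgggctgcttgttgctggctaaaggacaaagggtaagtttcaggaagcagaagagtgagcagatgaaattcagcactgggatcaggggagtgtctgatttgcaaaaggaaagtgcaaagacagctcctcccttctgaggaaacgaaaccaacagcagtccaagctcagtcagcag
IFITM1: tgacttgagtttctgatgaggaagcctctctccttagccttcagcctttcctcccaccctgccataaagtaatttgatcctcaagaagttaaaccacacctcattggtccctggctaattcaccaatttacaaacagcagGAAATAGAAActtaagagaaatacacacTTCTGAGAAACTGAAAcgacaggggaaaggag
BST2: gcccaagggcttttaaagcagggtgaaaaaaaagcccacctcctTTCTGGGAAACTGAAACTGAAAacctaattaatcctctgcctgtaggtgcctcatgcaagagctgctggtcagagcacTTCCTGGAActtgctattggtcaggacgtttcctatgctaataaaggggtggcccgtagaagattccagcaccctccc
OAS3: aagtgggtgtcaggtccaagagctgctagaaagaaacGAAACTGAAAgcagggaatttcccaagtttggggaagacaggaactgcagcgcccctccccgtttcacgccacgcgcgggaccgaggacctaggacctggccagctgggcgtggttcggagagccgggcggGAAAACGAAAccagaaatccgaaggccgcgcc
In the OAS1 window the capitals mark 1 gamma-activated motif starting 168 bases before the start, and GAAANNGAAA was not found. The letters near the OAS1 start do hold gaaacgaaa, 2 copies of GAAA parted by 1 base, which the search did not count. In OAS3 the capitals mark response elements at 143 and 12 bases before the start. BST2 has 1 run in which a gamma-activated motif and 2 response elements overlap, between 136 and 124 bases before the start by their first bases, and another gamma-activated motif at 58. IFITM1 has a response element at 40 bases before the start, and a second at 6 that shares bases with a gamma-activated motif at 12. OAS1 and OAS3, whose windows matched different search patterns, were both highest in DLD-1. BST2 and IFITM1, whose windows hold both motifs, were highest in SW620 and in HCEC-1CT.

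**Figure D3:**
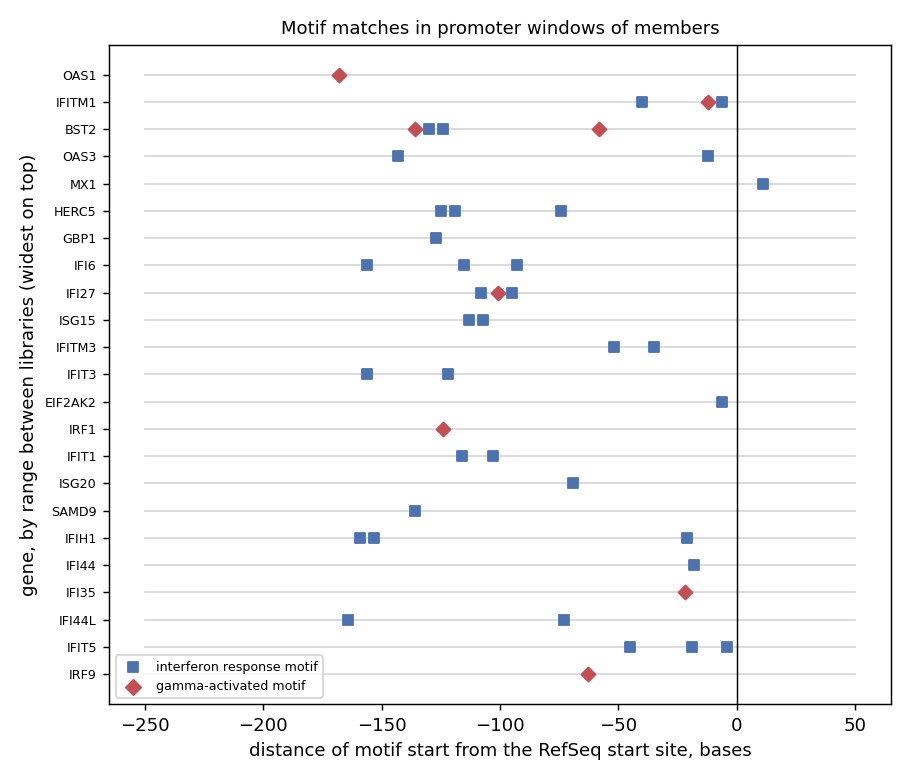
Start of each motif match relative to the RefSeq start site, in bases, for the 23 members with at least 1 match, in the first window of each gene that holds one, the widest-ranging gene on top. Blue squares are the response element and red diamonds the gamma-activated motif. All squares plotted but that of MX1 lie before the start, as in HERC5, IFI6 and ISG15.

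Ligand transcripts were at or near 0. Of 21 interferon genes in the table, 19 were listed at 0 in all 4 libraries, and 1 passed the minimum. That gene was IFNE, a type I interferon of epithelia, at 1.42 FPKM in HCEC-1CT, 0.28 FPKM in HCT116 and 0.595 FPKM in DLD-1, and it was listed at 0 for SW620. In fragments these are about 62, 10, 20 and 0.

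Receptor subunits were all present in every line. IFNAR1, the subunit of the type I receptor that binds TYK2, stood at 27.6 FPKM in HCEC-1CT and, among the cancer lines, at 8.65 FPKM for HCT116, 13.3 for DLD-1 and 12.8 for SW620. HCT116 and SW620 lay at log2 differences of -1.57 and -1.05 from HCEC-1CT, and DLD-1 lay just inside 2-fold. IFNAR2, the other type I subunit and the one that binds ligand most tightly, stood at 10.5, 7.33, 3.13 and 6.27 FPKM in the same order of lines, which is kept from here on. Both were thus highest in HCEC-1CT, and the lowest line was HCT116 for IFNAR1 and DLD-1 for IFNAR2, by a log2 difference of -1.47.

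The type II receptor had another order. IFNGR1, the subunit that binds interferon gamma, stood at 23.6, 13.6, 59.1 and 29.9 FPKM, highest in DLD-1 at a log2 difference of 1.29 from HCEC-1CT. IFNGR2, the signalling subunit that brings in JAK2, stood at 23.3, 16.4, 14.7 and 30.5 FPKM, within 2-fold of HCEC-1CT in each line. Among the 4 receptor genes, 1 was lower by 2-fold in HCT116 (IFNAR1), 1 was higher and 1 lower in DLD-1 (IFNGR1 and IFNAR2), and 1 was lower in SW620 (IFNAR1). Each is 25% of the 4. Of all genes, 13.1%, 12.9% and 14.1% were lower in HCT116, DLD-1 and SW620, and 26.9%, 25.9% and 24.8% were higher. With 4 genes such shares cannot be told apart. IFNAR2, IFNAR1 and IFNGR2 follow in that order on chromosome 21, with gaps of 58.5 and 43.0 kb, and differed in their order of lines. The 58.5 kb gap holds another receptor gene, IL10RB, which is described below.

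**Figure D4:**
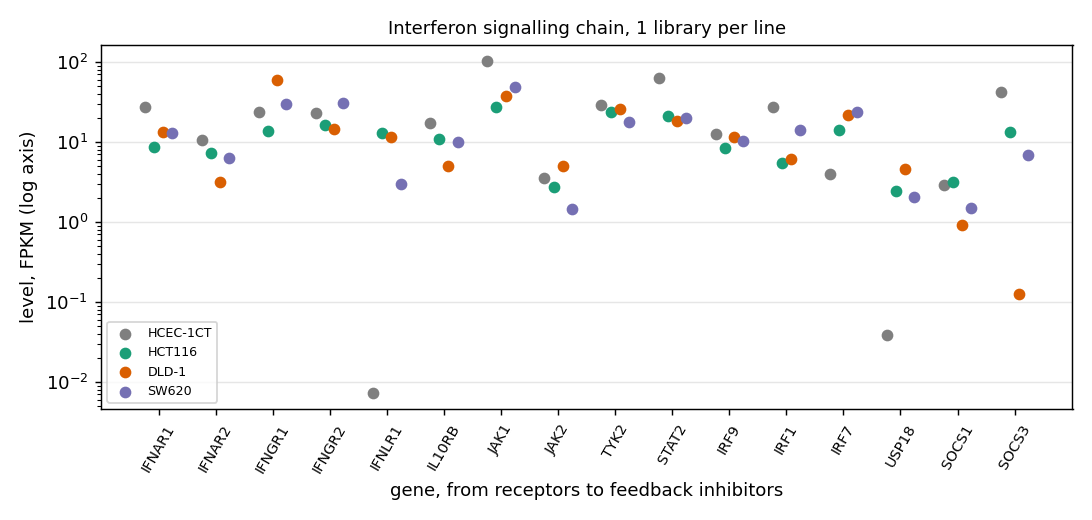
Levels in FPKM (log axis) of genes from receptors through kinases and STAT or IRF factors to feedback inhibitors, 1 point per library. HCEC-1CT (grey) is the top point for IFNAR1, JAK1, STAT2, IRF1 and SOCS3 and the lowest for IFNLR1, IRF7 and USP18.

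Receptors and kinases outside the 37 genes showed where the type III arm stood. IFNLR1, the subunit specific to type III interferons, stood at 0.00738 FPKM in HCEC-1CT, which is about 1 fragment, and at 12.9, 11.6 and 2.97 FPKM in the cancer lines. IL10RB, its partner, stood at 17.4, 10.8, 4.96 and 9.92 FPKM. The kinase JAK1, which serves all 3 interferon types, was at 102, 27.4, 37.7 and 48.2 FPKM, with log2 differences of -1.86, -1.41 and -1.07. TYK2 and JAK2, the partner kinases of type I and type II receptors, spanned 17.6 to 29.3 FPKM and 1.44 to 5.03 FPKM. JAK1 and the type I receptor subunits were all highest in HCEC-1CT, and IFNLR1 was near 0 there.

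STAT2, which joins IRF9 in the complex that binds response elements, stood at 62.1, 21.0, 18.2 and 19.8 FPKM. The cancer lines lay close together at log2 differences of -1.52, -1.72 and -1.60. IRF9, the part of the complex that contacts DNA, was at 12.4, 8.52, 11.6 and 10.2 FPKM, the narrowest range of any member, with a highest level 1.45 times the lowest.

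IRF1, a factor that is rapidly induced by interferon gamma, was at 27.0, 5.53, 6.08 and 13.9 FPKM. Its log2 differences from HCEC-1CT were -2.10, -1.98 and -0.91, SW620 being the nearest. IRF7, the factor that amplifies type I interferon production, went the other way with 4.03, 14.1, 21.9 and 23.8 FPKM, or differences of 1.58, 2.19 and 2.30. IRF1 was therefore highest and IRF7 lowest in the HCEC-1CT library. Of the 12 other receptor, kinase, STAT and IRF genes measured, 3 were higher and 2 lower by 2-fold in HCT116, 4 and 2 in DLD-1 and 3 and 2 in SW620. In HCT116 and SW620 that is 25% and 16.7% of the list, near the 26.9% and 13.1%, and the 24.8% and 14.1%, of all genes, and in DLD-1 it is 33.3% and 16.7%, against 25.9% and 12.9%. IRF5, which acts downstream of Toll-like receptors, was at 0.0227, 5.12, 4.88 and 2.89 FPKM.

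Both sensors were lowest in HCEC-1CT. DDX58, which encodes RIG-I and detects viral RNA with a triphosphate end, stood at 3.34, 8.73, 6.23 and 4.53 FPKM. IFIH1, which encodes MDA5 and detects long double-stranded RNA, stood at 1.80, 3.98, 7.18 and 6.36 FPKM. At 2-fold, DDX58 was higher in HCT116 (log2 1.16), and IFIH1 was higher in DLD-1 (1.54) and in SW620 (1.39).

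Among 11 other sensors and adaptors measured, 1 was higher and 3 lower in HCT116, 1 and 1 in DLD-1, and 0 and 5 in SW620. As shares of the list these are 9.09% and 27.3% (26.9% and 13.1% of all genes), 9.09% each way (25.9% and 12.9%), and 0% and 45.5% (24.8% and 14.1%). CGAS, the sensor of DNA in the cytosol, was at 1.81 FPKM in HCEC-1CT and 2.06 in DLD-1 and was listed at 0 in HCT116 and SW620. TMEM173, which encodes STING and acts after it, was at 12.3, 6.31, 10.0 and 3.21 FPKM. The 2 lines with CGAS listed at 0 were also the lower ones for TMEM173. IFI16, a nuclear DNA sensor, was at 37.4, 0.0842, 0.0104 and 0.311 FPKM, TLR3, a receptor of double-stranded RNA in endosomes, was at 0.0225, 0.154, 5.15 and 0.493 FPKM, and RNF135, a ubiquitin ligase that activates RIG-I, was at 6.70, 3.56, 7.63 and 0.0668 FPKM.

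The effectors with their highest level in SW620 included ISG15, IFI6 and IFI27, while IFIT3, IFI44 and IFI44L were highest in HCEC-1CT. ISG15, a ubiquitin-like protein that is attached to other proteins, stood at 14.8, 72.3, 38.7 and 131 FPKM, or log2 differences of 2.21, 1.33 and 3.07 from HCEC-1CT. IFI6, a membrane protein that limits flavivirus replication, was at 8.39, 47.4, 7.04 and 81.3 FPKM. For ISG15 the 3 cancer lines were all above HCEC-1CT, while for IFI6 DLD-1 was level with it (log2 -0.22). IFI27, a small mitochondrial protein and a common marker of type I interferon exposure, was at 0.158, 1.38, 0.143 and 10.4 FPKM. The first and the third of these rest on about 5 and 3 fragments, so IFI27 was near the detection limit in HCEC-1CT and DLD-1.

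The MX genes encode GTPases that block viruses at steps after entry. MX1 stood at 0.124, 0.519, 0.979 and 12.8 FPKM, where the first is about 12 fragments and the last about 852. MX2 was listed at 0 in HCEC-1CT and stood at 0.155, 1.52 and 2.10 FPKM in the cancer lines. The pair lies 10.9 kb apart on chromosome 21, and SW620 was the highest line for both, by a wider margin for MX1. BST2, or tetherin, which holds budding virus at the cell surface, was at 0.131, 0.792, 0 and 18.5 FPKM, or about 4, 19, 0 and 529 fragments. BST2 was thus barely detected outside SW620 and listed at 0 in DLD-1.

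The oligoadenylate synthetases make the second messenger that activates RNase L, which cuts RNA. OAS1 stood at 0.0831, 0.636, 51.5 and 31.0 FPKM, or about 3, 20, 1880 and 1602 fragments. OAS3, the largest synthetase, was at 0.781, 4.36, 33.3 and 9.96 FPKM, with log2 differences of 1.59, 4.27 and 2.62. OAS2 was at 0.726, 0.0167, 0.245 and 3.23 FPKM. These 3 genes lie in a row on chromosome 12 with gaps of 5.1 kb, and their orders differed: OAS1 and OAS3 were highest in DLD-1, whereas OAS2 was highest in SW620 and at about 20 fragments in DLD-1. AC004551.1, a gene on the opposite strand that spans all 3, was at 0.00826, 0, 3.27 and 1.75 FPKM. No source used here says whether the libraries keep strand, so reads of the 2 strands may have been mixed.

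OASL, a relative that lacks synthetase activity and supports RIG-I, lies elsewhere on chromosome 12. It was at 0.340, 2.39, 0.334 and 10.9 FPKM, an order like that of IFI6 with SW620 first and HCT116 second. ISG20, an exonuclease that degrades viral RNA, was at 4.34, 2.24, 3.10 and 12.1 FPKM. GBP2, a guanylate-binding GTPase that attacks vacuoles of intracellular bacteria, was at 3.58, 3.47, 0.280 and 12.6 FPKM. SW620 was the highest line for each of these 3, by log2 differences of 3.15, 1.30 and 1.56 from HCEC-1CT. Most of the GBP2 level in SW620, 8.64 FPKM, was assigned to GBP2-203, an entry annotated as a target of RNA decay. The entry annotated as protein coding, GBP2-201, was at 1.03, 2.22, 0 and 2.99 FPKM, so by that entry SW620 was little above HCT116. Both entries are annotated with a coding sequence of 591 residues.

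GBP1, the neighbour of GBP2 at a gap of 40.8 kb on chromosome 1 and a classic target of interferon gamma, was highest in HCEC-1CT. It stood at 9.96, 0.0650, 0.115 and 0.611 FPKM, or log2 differences of -3.36, -3.30 and -2.77. In the cancer lines this is about 5, 6 and 43 fragments, against about 706 in HCEC-1CT. XAF1, a proapoptotic partner of XIAP, also had its highest level there, at 1.55, 0.0214, 0 and 0.179 FPKM. IFI44, which restrains viral replication and cell growth, was at 1.05, 0.953, 0 and 0.268 FPKM, and IFI44L, 3.6 kb away, was at 0.907, 0.0382, 0 and 0.00593 FPKM. XAF1, IFI44, IFI44L and BST2 were the 4 members listed at 0 in DLD-1.

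IFIT proteins bind viral RNA that lacks the cap marks of the host. IFIT1 stood at 2.35, 6.64, 0.838 and 6.68 FPKM, nearly equal in HCT116 and SW620. IFIT3, its stabilising partner, was at 5.27, 0.387, 1.56 and 4.42 FPKM, with HCT116 the lowest at a log2 difference of -2.18. IFIT1 and IFIT3 thus differed most in HCT116, where IFIT1 was above and IFIT3 below HCEC-1CT. IFIT2 was low in all libraries, at 0.632, 0.646, 1.08 and 1.36 FPKM, and IFIT5, which binds uncapped RNA and transfer RNA, was at 7.93, 5.12, 5.33 and 5.32 FPKM. None of the log2 differences of IFIT2 or IFIT5 passed 0.54 in size. All 4 lie on chromosome 10, and LIPA, a lysosomal lipase on the opposite strand at 15.3, 35.2, 33.9 and 36.4 FPKM, spans IFIT1, IFIT2 and IFIT3.

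IFITM proteins sit in membranes and hinder the fusion of viruses with the cell. IFITM3, which acts in endosomes, stood at 80.8, 217, 57.2 and 31.7 FPKM, the highest level of any member in any library being that in HCT116. IFITM2 was at 37.7, 33.1, 57.3 and 41.2 FPKM, within 2-fold of HCEC-1CT in each line. IFITM1, found at the cell surface, was at 61.5, 30.1, 13.2 and 1.63 FPKM by gene total. That is a log2 difference of -4.57 in SW620, the widest one downward of all members. By gene total, SW620 was the lowest line for IFITM1 and IFITM3 and was the highest for 13 of the 26 effectors.

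The 3 IFITM genes overlap in the deposited table, so their split is uncertain. In HCT116 and DLD-1, 95.5% and 88.5% of the IFITM1 value came from 1 transcript assembled by the authors' program, at chromosome 11, 308217 to 320884, a span that reaches into IFITM2 and IFITM3. Its levels were 6.56, 28.7, 11.6 and 0 FPKM. The annotated transcript IFITM1-202 was at 54.8, 1.31, 1.39 and 1.63 FPKM. With annotated transcripts alone, a choice made after the values had been seen, the IFITM1 differences from HCEC-1CT were -4.56 for HCT116 and -4.47 for DLD-1, in place of -1.01 and -2.14. SW620 was then at -4.41, in place of -4.57, and was no longer the lowest line for IFITM1. Of the 50-base words of IFITM1-202, 6.2% also occur in IFITM2-202 and 12.2% in IFITM3-201.

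Of the remaining effectors, HERC5 and EIF2AK2 varied widely. HERC5, the ligase that attaches ISG15 to its targets, stood at 0.174, 10.6, 1.72 and 0.0469 FPKM, or about 18, 925, 138 and 4 fragments. HCT116 was its highest line, and in SW620, where ISG15 itself was highest, HERC5 was near the detection limit. EIF2AK2, which encodes PKR, the kinase that stops translation on double-stranded RNA, was at 10.6, 9.12, 43.2 and 16.3 FPKM, or a log2 difference of 1.93 in DLD-1. SAMD9, a translation regulator that acts against poxviruses, was at 3.29, 1.28, 6.87 and 3.60 FPKM, and IFI35, which binds NMI, was at 5.51, 3.86, 4.61 and 8.68 FPKM. For SAMD9 and IFI35 no line differed by 2-fold from HCEC-1CT.

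Gene totals hid differences in the transcripts used. Of 21 members at 5 FPKM or more in at least 2 libraries, 8 had different leading transcripts between libraries, namely IFI35, IFITM1, IFITM2, STAT2, IRF7, IRF9, IFNGR1 and EIF2AK2. The same share was not computed over all genes, so whether 8 of 21 is particular to the members was not tested. The division of reads between transcripts that share exons is an estimate by the authors' program, and no replicate shows how stable it is. For IFNGR1, the transcript IFNGR1-211, of 479 residues, held 86.8% of the level in HCEC-1CT, at 20.5 FPKM. In HCT116 and DLD-1 it was IFNGR1-207, of 448 residues, with 84.1% and 87.0%, or 11.4 and 51.4 FPKM. SW620 had 99.1% in IFNGR1-201, of 489 residues, at 29.6 FPKM.

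EIF2AK2 differed in transcript length. EIF2AK2-201, of 10042 bases, stood at 6.06, 7.17, 15.3 and 0 FPKM, and EIF2AK2-203, of 4343 bases, at 3.28, 1.78, 0.495 and 15.7 FPKM. Both encode 551 residues. EIF2AK2-204, of 1533 bases and 510 residues, was at 22.6 FPKM in DLD-1, where it made up 52.2% of the gene, and was listed at 0 in the other 3 libraries. Since FPKM divides by length, a split that assigns reads to a short transcript raises the gene total.

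OAS1 was built differently in the 2 lines that held it. In SW620, OAS1-201, of 400 residues, stood at 28.3 FPKM and made up 91.3% of the gene. DLD-1 had 19.5 FPKM of it, or 37.9%, beside 12.7 FPKM of OAS1-203, of 364 residues, 6.41 FPKM of OAS1-206 and 5.90 FPKM of OAS1-210. By gene total DLD-1 was above SW620, and by OAS1-201 it was below.

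**Figure D5:**
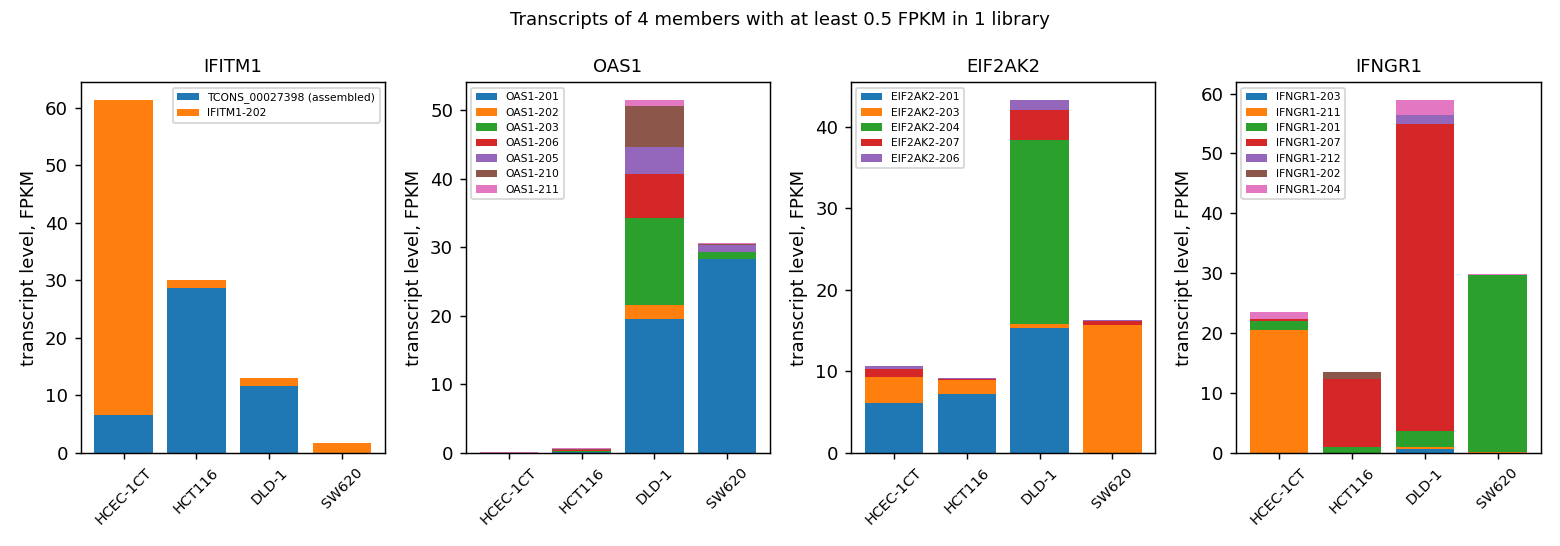
Levels in FPKM of the transcripts of IFITM1, OAS1, EIF2AK2 and IFNGR1 that reached 0.5 FPKM in at least 1 library, stacked by library. The assembled IFITM1 transcript makes up 95.5% of the gene in HCT116 and 0 in SW620, and the leading IFNGR1 transcript is IFNGR1-211 in HCEC-1CT, IFNGR1-207 in HCT116 and DLD-1 and IFNGR1-201 in SW620.

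IFNAR2 kept the same leading transcript in the 4 libraries. IFNAR2-202, of 515 residues, was at 4.22, 2.97, 1.18 and 3.80 FPKM, and IFNAR2-205, of 331 residues, was at 3.82, 1.84, 1.08 and 0.772 FPKM. The longer form made up 60.6% of the gene in SW620 and between 37.8% and 40.5% in the other libraries. For STAT2 the leading entry in HCEC-1CT, HCT116 and DLD-1 was STAT2-207, an entry with no coding sequence in the annotation, at 30.3, 10.1, 7.26 and 6.54 FPKM. Of the coding transcripts, STAT2-210, of 847 residues, was at 4.88, 2.66, 2.34 and 8.05 FPKM, STAT2-201, of 851 residues, at 4.78, 1.92, 2.08 and 0.66 FPKM, and STAT2-202, of 460 residues, at 5.66, 1.27, 1.22 and 0.175 FPKM. SW620 was the highest line for STAT2-210 and HCEC-1CT for the other two and for the gene total.

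MX1 in SW620 was carried mainly by MX1-202, of 662 residues, at 8.09 FPKM, which was listed at 0 in the other libraries. IFITM2 was led by IFITM2-202 except in DLD-1, where IFITM2-206 stood at 47.7 FPKM, and both encode 132 residues.

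Among the feedback inhibitors, HCEC-1CT was the lowest line for USP18 and the highest for SOCS3. USP18, which removes ISG15 and blocks IFNAR2, stood at 0.0393, 2.47, 4.53 and 2.06 FPKM, about 2 fragments in HCEC-1CT. SOCS1, which inhibits JAK kinases, was at 2.88, 3.15, 0.927 and 1.48 FPKM. SOCS3, a relative that mainly restrains interleukin-6 type signalling, was at 42.1, 13.4, 0.125 and 6.79 FPKM, so DLD-1 was lowest for both SOCS genes. PTPN6, the phosphatase SHP-1, was at 0.351, 16.6, 15.4 and 24.5 FPKM. Of 12 negative regulators measured, 2 were higher and 2 lower by 2-fold in HCT116, 4 and 4 in DLD-1, and 2 and 1 in SW620. These are 16.7% each way (26.9% and 13.1% of all genes), 33.3% each way (25.9% and 12.9%), and 16.7% and 8.33% (24.8% and 14.1%). UBE2L6, an enzyme that conjugates ISG15 and was counted in that list, was at 11.2, 9.27, 2.16 and 19.7 FPKM, highest in SW620, as ISG15 was.

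In a wider list of interferon-stimulated genes, fewer were higher than lower in SW620. Of 37 such genes past the minimum, of which IFI16 was also counted among the sensors, 4 were higher and 11 lower by 2-fold in that line (10.8% and 29.7%, against 24.8% and 14.1% of all genes). Their median log2 difference was -0.41, against 0.21 for all genes. HCT116 had 6 higher and 12 lower (16.2% and 32.4%, against 26.9% and 13.1%), with a median of -0.50 against 0.27. DLD-1 had 11 higher and 6 lower (29.7% and 16.2%, near the 25.9% and 12.9% of all genes), with a median of 0.12 against 0.33. HCEC-1CT held the highest level of 13 of them (35.1%, against 18.9% of all genes), DLD-1 of 11 (29.7%, against 32.9%), SW620 of 7 (18.9%, against 21.5%) and HCT116 of 6 (16.2%, against 26.8%). SLFN11, which stalls replication forks and restricts HIV, was at 26.6 FPKM in HCEC-1CT, 0.00852 in DLD-1 and 0 in HCT116 and SW620. SLFN5, its relative on chromosome 17, was at 23.8, 6.17, 0 and 0.499 FPKM.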

How the data were processed

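The authors deposited FPKM tables for genes and transcripts, with 1 column per library. FastQC, HISAT2 and hg38 are named in the submitters' processing notes. No source used here names the program that made the FPKM values, the annotation or the strandedness. In the deposited table, 1 column of values that matched no sample was not used. Gene IDs were matched to GENCODE 29 (58275 IDs). Python 3.11.15, pandas 2.3.3, numpy 2.4.6 and matplotlib 3.10.9 were used. Genes at 1 FPKM or more in at least 1 library (18637) were kept, 1 FPKM was added, and log2 ratios to HCEC-1CT were taken; with 1 library per line no test was run. Depth was estimated from the steps between low FPKM values, and the code was tested on simulated data. The members and gene lists were chosen with earlier results of these data known. All 37 members are named; of the other lists, core pathway genes and the widest-ranging measured ones, some of which are not reported here. Alternatives varied the added value, minimum, scaling, fold and the transcripts summed. RefSeq promoters were searched for both motifs.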

Additional observations from a re-analysis of the deposited data

How the results depend on the processing

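No paired analysis was possible because each line has 1 library. Of the 56 member differences of at least 2-fold, 0 changed direction with annotated transcripts alone. Another added value cannot change a direction. The scalings moved a library against HCEC-1CT by at most 0.46 on the log2 scale, too little to reverse a 2-fold difference. With 0.1 FPKM added, 15 of 36 members were higher and 9 lower in HCT116 (34.8% and 18.3% of all genes). The counts were 11 and 13 in DLD-1 (34.5% and 16.5%), and 15 and 7 in SW620 (33.1% and 19.3%). Of all 111 differences, 38 moved by over 1.5 times. With 5 FPKM added, 5 members were higher and 4 lower in HCT116 (12.4% and 6.26% of all genes). In DLD-1, 6 were higher and 4 lower (12.4% and 6.51%), and in SW620 10 and 4 (12.4% and 6.54%). The SW620 median was then 0.31, against 0.09 for all genes. Scaling by the median ratio, which places the cancer libraries 0.38, 0.41 and 0.29 higher on the log2 scale than HCEC-1CT, gave medians of -0.45, -0.51 and 0.21 in HCT116, DLD-1 and SW620. Those of all genes were then 0.03, 0.05 and 0.03. As TPM, 12 were lower in HCT116 (22% of all genes) and the medians were -0.54, -0.32 and 0.24, against 0.00, 0.32 and 0.06 for all genes. At 4-fold, 3 were higher and 3 lower in HCT116 (9.04% and 5.01% of all genes), 3 and 2 in DLD-1 (9.24% and 5.57%), and 9 and 2 in SW620 (8.93% and 5.49%). The annotated transcripts alone, an alternative chosen after seeing the data, gave 10 lower in DLD-1 (13.2% of all genes). Of the 56 differences, 23 fell below 2-fold with 5 FPKM added, 6 with the median ratio and 3 as TPM. Levels under 0.2 FPKM rest on few fragments.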

Other observations

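Several further interferon-stimulated genes, chosen after their values were seen, were highest in DLD-1. They come from the wider list, in which DLD-1 was highest for 11 of 37 genes (29.7%, against 32.9% of all genes). PARP9 and DTX3L, which form a complex that supports interferon signalling, and their neighbour PARP14 lie within 1 stretch of chromosome 3. With the lines in the order used above, PARP9 stood at 2.10, 2.44, 12.3 and 4.58 FPKM, DTX3L at 7.26, 3.65, 18.9 and 8.04 FPKM, and PARP14 at 13.5, 2.52, 28.5 and 8.18 FPKM. PARP12, an antiviral relative on chromosome 7, was at 5.83, 3.35, 32.6 and 10.3 FPKM. NMI, the binding partner of IFI35, was at 5.32, 1.55, 14.1 and 1.84 FPKM, an order unlike that of IFI35.

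GBP3, a guanylate-binding gene beside GBP1 on chromosome 1, also chosen after its values were seen, was at 10.2, 0.0214, 9.60 and 1.84 FPKM. In DLD-1 it was close to its HCEC-1CT level, with a log2 difference of -0.08, while GBP1 and GBP2 were lower there by -3.30 and -1.84. DDX60L, a helicase-related gene, was highest in HCT116 at 19.5 FPKM, against 2.90 to 4.69 FPKM in the other libraries. In fragments the lead of HCT116 was smaller, at about 502, 928, 572 and 368 in the order of lines used above. The split between DDX60L transcripts was not examined.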
